A study of Mus musculus with 12 samples.

Results

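The miRNAs described here are those linked to endothelial cells and to the mural cells of blood vessels, the smooth muscle cells and pericytes: miR-126, miR-143, miR-145, miR-199a with its near relative miR-199b, and miR-214. They were chosen by name, with earlier results of these data known. The rule took every assay of the TaqMan OpenArray without the passenger strand mark # named miR-126, miR-143, miR-145, miR-199 or miR-214, with any letter or arm. This gave 9 of the 619 miRNA assays. A total of 8 of the 9 had a Ct below 28 in at least 2 of the 3 samples of every group and entered the comparisons, as 478 of all miRNA assays did, and 1 of the 9 (miR-145) had a Ct in all 12 samples.

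miR-126 is made from an intron of the endothelial gene Egfl7 and supports the response of endothelial cells to vascular endothelial growth factor. miR-143 and miR-145 are cut from 1 shared transcript and maintain the contractile state of vascular smooth muscle. miR-199a and miR-214 are made together from the antisense transcript Dnm3os and are known from mesenchymal and fibroblast-like cells. These cells are a small part of the hippocampus, and miR-126 is one of the miRNAs most used to mark brain endothelium.

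The samples were ipsilateral hippocampi of C57BL/6 mice, male per the methods, and each sample pooled 2 hippocampi from different animals. The 4 groups of 3 samples were wild-type vehicle-injected mice (wt control), vehicle-injected mice lacking exon 2 of P2rx7 in all cells (P2rx7-/- control), and wt or P2rx7-/- mice taken 8 h after kainic acid (KA) was injected into the amygdala to trigger status epilepticus (wt post-SE and P2rx7-/- post-SE). The labels give an age of 8 weeks and the methods a range of 8 to 12 weeks. KA-treated mice received 0.3 μg KA, and all groups received 6 mg/kg lorazepam 40 min after KA or vehicle. The array holds no assay of P2rx7 mRNA, so the genotype could not be checked in these values. In whole tissue, fewer vascular cells and less of a miRNA per cell cannot be told apart.

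The mature sequences show which of these assays read a shared target. The sequences are from RefSeq (mouse assembly GRCm38.p6), written 5′ to 3′ with the seed (bases 2 to 8), which pairs with target mRNAs, in capitals. Of the assays whose sequences are shown, hsa-miR-199a-3p names its arm. For miR-126, hsa-miR-199a and miR-214 the arm that long carried the plain name is shown, and the # assays of miR-126 and miR-214 read the opposite arm, of which that of miR-214 is shown. The name of the mmu-miR-199b assay does not give its arm, so that the miR-199b strand below need not be its target. The sequences of miR-143 and miR-145 are not printed here.
mmu-miR-126a-3p: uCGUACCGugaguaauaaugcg
mmu-miR-199a-5p: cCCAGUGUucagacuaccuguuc
mmu-miR-199a-3p and mmu-miR-199b-3p: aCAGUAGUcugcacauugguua
mmu-miR-214-3p: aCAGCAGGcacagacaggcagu
mmu-miR-214-5p: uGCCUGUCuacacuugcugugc
The 3p strands of miR-199a and miR-199b are 1 sequence, so that the hsa-miR-199a-3p assay cannot separate them, and the seeds of the other strands shown differ from each other. miR-126a-3p lies at chr2:26591402-26591423 on the plus strand, within Egfl7. miR-214-3p lies at chr1:162223438-162223459 on the plus strand and miR-199a-3p of Mir199a-2 at chr1:162217883-162217904, both within Dnm3 and Dnm3os. miR-199a-3p has another locus, at chr9:21496498-21496519 on the minus strand within Dnm2, and miR-199b-3p lies at chr2:32318524-32318545 on the plus strand within Dnm1. miR-143 and miR-145 both lie within the lncRNA Carmn.

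Levels are given as −ΔCt, the mean Ct over the 335 miRNA assays detected in all 12 samples minus the Ct of the assay. This is a log2 scale, and a higher value means more miRNA. An assay's efficiency also sets its Ct, so that levels of different assays were ranked only as Ct values. miR-126 was among the earliest signals on the array, with a mean Ct of 10.7, rank 2 of the 478 analyzed assays. miR-145 followed with a mean Ct of 13.8 (rank 42), and hsa-miR-143 (assay 002249) with 15.8 (rank 98). hsa-miR-199a-3p, both miR-214 assays and the other hsa-miR-143 assay (000466) had mean Ct values between 19.5 and 21.3, and mmu-miR-199b was near the upper end of detection, with a mean Ct of 26.5 (rank 476).

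A missing Ct fell on a different sample for most of the assays. Both miR-143 assays had none in wt control replicate 1, and the hsa-miR-126 assay had none in wt control replicate 3 and wt post-SE replicate 3. mmu-miR-214, hsa-miR-199a-3p, hsa-miR-214 and mmu-miR-199b each lacked a Ct in 1 sample (P2rx7-/- control replicates 3 and 1, and wt post-SE replicates 1 and 2). The lowest Ct listed for any miRNA was 10.1, and the 5 assays with a mean Ct under 11, miR-126 among them, had no Ct in 31.7% of their values, against 3.65% of the values of assays with a mean Ct of 12 to 18. The part that this lower end had in the empty miR-126 values was not tested. The ninth assay, hsa-miR-199a (000498), had a Ct in 7 samples, 1 of wt control, 1 of P2rx7-/- control, 3 of wt post-SE and 2 of P2rx7-/- post-SE, and was not compared. Its Ct values were late, and its −ΔCt ranged from -8.73 to -3.81 in the wt post-SE group alone.

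Within the series, wt control replicate 1 stood apart. Its Spearman correlation with the other samples over the miRNAs was 0.660 to 0.737, whereas the other samples correlated with each other at 0.872 to 0.989. It lacked a Ct for 66 of the 478 analyzed assays (13.8%), and the other samples for 2 to 34. Repeated wells of snoRNA135 within a sample had an SD of 1.13 cycles, with 7.49% of wells more than 1 cycle from their sample's median. For snoRNA202 these were 1.05 cycles and 1.91%. Each miRNA assay was read once per sample. Average fold changes against wt control are therefore given with and without wt control replicate 1, which leaves those of miR-143 as they are. For mmu-miR-199b they are given with their range over all alternatives, replicate 1 left out included.

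**Figure D1:**
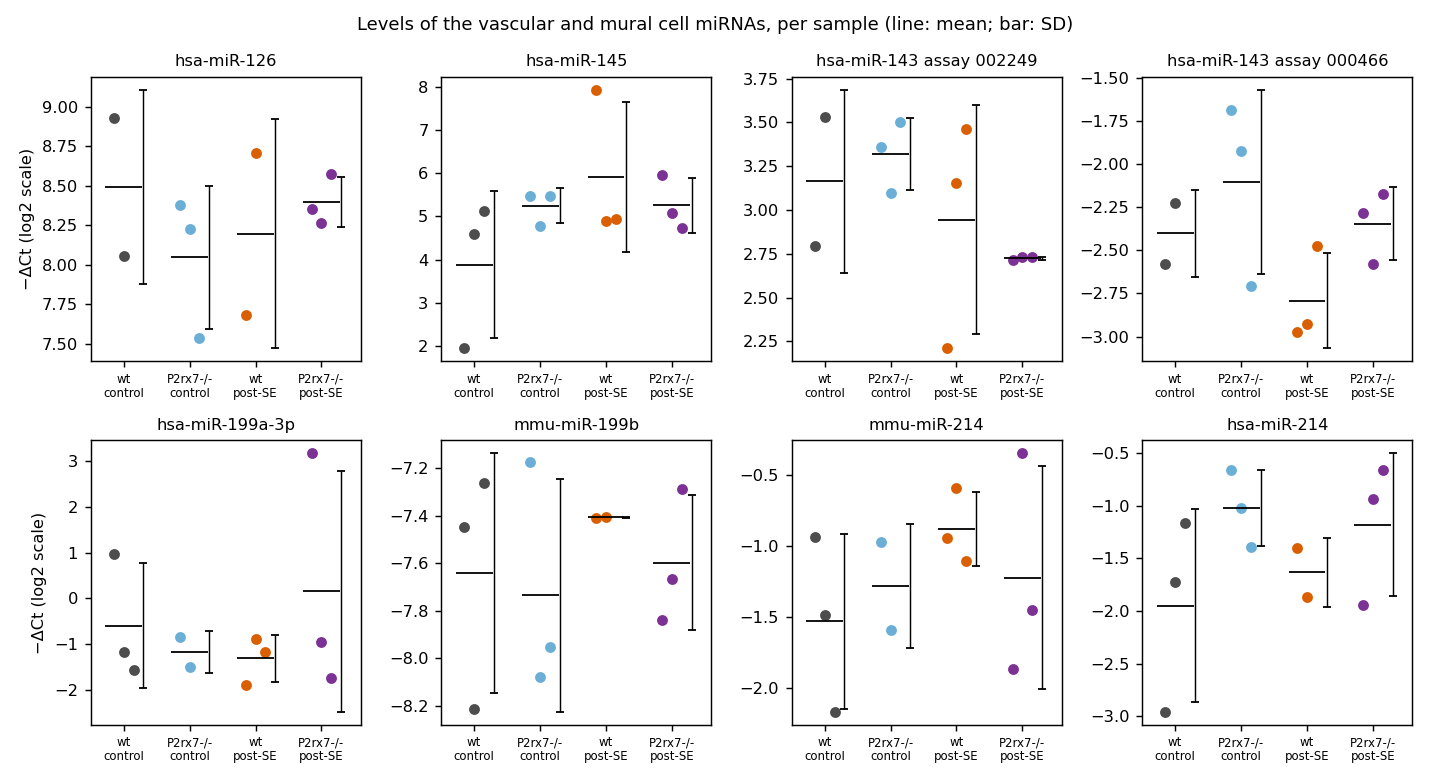
Each panel shows 1 assay, with −ΔCt (log2 scale) on the vertical axis, the 4 groups on the horizontal axis, a point per sample, a line at the group mean and a bar of ± 1 SD. Single samples set apart the means of hsa-miR-145 (wt control at 1.94, wt post-SE at 7.94) and hsa-miR-199a-3p (P2rx7-/- post-SE at 3.17), and the 3 P2rx7-/- post-SE points of hsa-miR-143 assay 002249 lie between 2.71 and 2.73.

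The endothelial miR-126 overlapped between all groups, with group means between 8.05 and 8.49. Its −ΔCt was 8.93 and 8.06 in wt control, 8.38, 8.23 and 7.53 in P2rx7-/- control, 7.68 and 8.71 in wt post-SE and 8.35, 8.27 and 8.57 in P2rx7-/- post-SE samples. The means ran from wt control (8.49 ± 0.61, SD, n = 2) through P2rx7-/- post-SE (8.40 ± 0.16, n = 3) and wt post-SE (8.20 ± 0.72, n = 2) to P2rx7-/- control (8.05 ± 0.45, n = 3). No neighbours in this order differed by more than the larger of their SDs. The average FC (2 to the power −ΔΔCt, each sample against the mean of the reference group) against wt control was 0.757 in knockout controls, 0.867 after status epilepticus in wt mice and 0.940 after it in knockout mice, and without wt control replicate 1 it was 1.02, 1.17 and 1.27. The first of these fell below 0.6, the limit for a down-regulated miRNA, without wt control replicate 2, at 0.561, and the second without wt post-SE replicate 2, at 0.571. Scaled to snoRNA135 and snoRNA202 they were 0.594 and 0.584, where this scaling moved the median log2 difference of all assays by -0.26 and -0.50. Averaged over genotypes, miR-126 post-SE was 1.02 times its control level, with a 95% confidence interval of 0.597 to 1.74 (limma adjusted p = 0.990). The knockout level averaged over treatments was 0.918 times the wt level (0.538 to 1.57, limma adjusted p = 0.987). Its passenger strand, hsa-miR-126#, also showed no called difference, at 1.09 times the control level post-SE (0.558 to 2.14) and 0.645 times the wt level in knockout mice (0.330 to 1.26). Within 1 genotype the interval of the post-SE to control ratio of miR-126 was wider, 0.355 to 1.87 in wt and 0.647 to 2.51 in P2rx7-/- mice.

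miR-145, which holds smooth muscle in its contractile state, had the largest average fold change among these miRNAs after status epilepticus in wt mice, and 1 sample in each of the compared groups set its size. Its −ΔCt was 1.94, 4.58 and 5.13 in wt control, 5.48, 4.79 and 5.49 in P2rx7-/- control, 7.94, 4.89 and 4.93 in wt post-SE and 5.97, 5.08 and 4.73 in P2rx7-/- post-SE samples. wt control replicate 1 was the lowest and wt post-SE replicate 1 the highest of all 12 samples, while the remaining 10 samples lay between 4.58 and 5.97. The average FC was 6.90 ± 8.41 (SD, n = 3) for wt post-SE against wt control. Without wt control replicate 1 it was 3.52, and without wt post-SE replicate 1 it was 2.04, the lowest value with any 1 sample left out. It thus stayed above 1.5, but leaving out 1 sample always kept 1 of these outlying samples in. The other samples were at 4.58 and 5.13 in wt control and at 4.89 and 4.93 in wt post-SE. On the log2 scale the difference over all samples was 2.04 ± 0.96 (SE; 95% interval -0.11 to 4.19), with a limma p of 0.0610 and an adjusted p of 0.792.

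The wt control group also set the other calls of miR-145. The average FC was 2.65 ± 0.672 in P2rx7-/- control and 2.78 ± 1.29 in P2rx7-/- post-SE samples against wt control (both n = 3), and 1.35 and 1.42 without wt control replicate 1. Where that group was not the reference, the values were 0.677 ± 0.314 for P2rx7-/- post-SE against wt post-SE (0.474 to 1.36 with 1 sample left out) and 1.07 ± 0.499 for P2rx7-/- post-SE against P2rx7-/- control. In order, wt post-SE had the highest mean −ΔCt (5.92 ± 1.75), then P2rx7-/- post-SE (5.26 ± 0.64), P2rx7-/- control (5.25 ± 0.40) and wt control (3.88 ± 1.71). No neighbours in this order differed by more than the larger of their SDs. The passenger strand assay mmu-miR-145# had a Ct in 1 sample (P2rx7-/- post-SE replicate 1, Ct 26.8) and could not be compared.

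miR-143, made from the same transcript as miR-145, was steadier between samples than miR-145. By assay 002249 its −ΔCt was 2.80 and 3.53 in wt control, 3.36, 3.10 and 3.50 in P2rx7-/- control, 2.21, 3.16 and 3.46 in wt post-SE and 2.71, 2.73 and 2.73 in P2rx7-/- post-SE samples. All 3 P2rx7-/- post-SE samples were below every P2rx7-/- control and every wt control sample, and within the range of wt post-SE samples. The average FC was 0.662 ± 0.00474 against P2rx7-/- control (n = 3) and 0.737 ± 0.00527 against wt control, both short of the limit of 0.6, which the latter passed without wt control replicate 2, at 0.571. Against P2rx7-/- control the log2 difference was -0.59 ± 0.38 (SE), with a limma adjusted p of 0.998 and an exact permutation p of 0.1, the smallest that 3 against 3 samples allow.

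By assay 000466 miR-143 had a −ΔCt of -2.58 and -2.22 in wt control, -1.68, -1.92 and -2.71 in P2rx7-/- control, -2.98, -2.92 and -2.47 in wt post-SE and -2.28, -2.58 and -2.17 in P2rx7-/- post-SE samples. Here the P2rx7-/- post-SE samples overlapped both control groups, with an average FC of 0.852 ± 0.121 against P2rx7-/- control and 1.05 ± 0.148 against wt control. In each genotype both assays had a lower mean post-SE than in controls. In wt mice this turned for assay 002249 without wt control replicate 3 or wt post-SE replicate 1, where the average FC was 1.18 and 1.11 in place of 0.915. Averaged over genotypes the post-SE level was 0.754 times the control level by assay 002249 (95% interval 0.479 to 1.19) and 0.803 times by assay 000466 (0.531 to 1.21), both with a limma adjusted p of 0.856.

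miR-199a-3p showed the largest FC of these assays in the post-SE comparison of genotypes, from 1 sample. Its −ΔCt was 0.96, -1.18 and -1.56 in wt control, -0.84 and -1.50 in P2rx7-/- control, -1.88, -0.89 and -1.16 in wt post-SE and 3.17, -0.96 and -1.73 in P2rx7-/- post-SE samples. P2rx7-/- post-SE replicate 1 was above all other samples, followed by wt control replicate 1, and the remaining 9 samples with a Ct lay between -1.88 and -0.84. The average FC of P2rx7-/- post-SE samples was 8.13 ± 12.3 against wt post-SE, 7.39 ± 11.2 against P2rx7-/- control and 4.94 ± 7.50 against wt control (n = 3). Without P2rx7-/- post-SE replicate 1 it was 1.01, 0.920 and 0.615, so that none of these remained above 1.5, and against wt control it was 8.48 without wt control replicate 1. The other groups against wt control gave 0.687 (P2rx7-/- control) and 0.633 (wt post-SE), which were 1.18 and 1.09 without wt control replicate 1 and reached 0.491 and 0.452, below 0.6, without wt control replicate 3. The limma difference against wt post-SE was 1.47 ± 1.20 (SE) on the log2 scale, with an adjusted p of 0.999. The mmu-miR-199b assay, whose name gives no arm, showed no such sample. Its −ΔCt lay between -8.21 and -7.17 in all 11 samples with a Ct, and P2rx7-/- post-SE replicate 1 was at -7.84.

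miR-214 was read by a pair of assays that gave different calls. hsa-miR-214 had a −ΔCt of -2.96, -1.73 and -1.17 in wt control, -0.67, -1.02 and -1.39 in P2rx7-/- control, -1.40 and -1.87 in wt post-SE and -1.94, -0.94 and -0.66 in P2rx7-/- post-SE samples. Its average FC against wt control was 1.94 ± 0.481 in P2rx7-/- control and 1.82 ± 0.741 in P2rx7-/- post-SE samples. Both lost the call without wt control replicate 1, the lowest sample, at 1.37 and 1.29, and the latter also fell to 1.49 when scaled to snoRNA135 and snoRNA202. mmu-miR-214 had -0.94, -1.49 and -2.17 in wt control, -0.97 and -1.59 in P2rx7-/- control, -0.94, -0.59 and -1.10 in wt post-SE and -1.87, -0.35 and -1.46 in P2rx7-/- post-SE samples. By this assay wt control replicate 1 was the highest of its group. It was called up-regulated in wt post-SE samples (average FC 1.59 ± 0.294), where hsa-miR-214 gave 1.26 ± 0.285 (n = 2), and not in P2rx7-/- control samples (1.21 ± 0.364, n = 2). Without wt control replicate 1 these were 1.95, 0.890 and 1.49, and mmu-miR-214 in P2rx7-/- post-SE against wt control samples went from 1.37 to 1.69. The call in wt post-SE samples was lost without wt control replicate 3, at 1.27, without wt post-SE replicate 2, at 1.42, when scaled to snoRNA135 and snoRNA202, at 1.13, and with the deposited fold changes, at 1.45. Averaged over treatments, the knockout level was 1.61 times the wt level by hsa-miR-214 (95% interval 0.865 to 3.00) and 0.967 times by mmu-miR-214 (0.549 to 1.70), with limma adjusted p of 0.955 and 0.987. The opposite arm, hsa-miR-214#, had a Ct in all 12 samples and a knockout level of 1.34 times the wt level (0.820 to 2.19, limma adjusted p = 0.955).

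**Figure D2:**
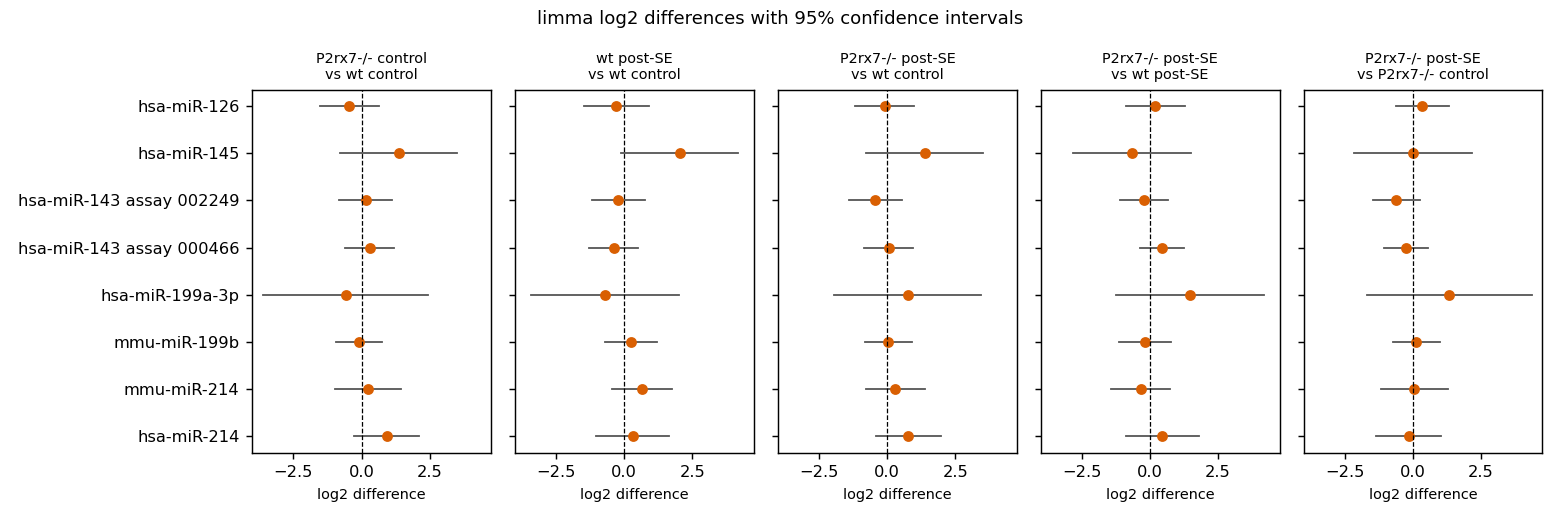
Each panel shows 1 comparison, with the limma log2 difference (first group minus reference) as a point and its 95% confidence interval as a line for each of the 8 analyzed assays. All 40 intervals cross the dashed line at 0, and those of hsa-miR-145 and hsa-miR-199a-3p are the widest.

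By the FC rule (an average above 1.5 for up-regulated, below 0.6 for down-regulated), 2 of the 8 assays were called up-regulated in P2rx7-/- control against wt control samples, miR-145 and hsa-miR-214, where 25.5% of all analyzed assays were. A further 2 were up-regulated in wt post-SE against wt control samples, miR-145 and mmu-miR-214 (26.8% of all assays), and 3 in P2rx7-/- post-SE against wt control samples, miR-145, miR-199a-3p and hsa-miR-214 (24.5%). For P2rx7-/- post-SE samples against wt post-SE (20.3% of all assays) and against P2rx7-/- control samples (22.6%), 1 of the 8 was up-regulated, miR-199a-3p in both. None of the 8 was called down-regulated in the 5 comparisons, where 15.3%, 12.8%, 14.2%, 7.74% and 9.21% of all assays were. These calls depended on the settings, since 8 of the 9 up-regulated calls were lost under at least 1 alternative, and 5 of the 8 assays (miR-126, miR-145, miR-143 by assay 002249, miR-199a-3p and mmu-miR-214) fell below 0.6 under at least 1 alternative in some comparison. The first 3 comparisons share the wt control samples. The groups did not overlap for 1 assay, miR-143 (002249), in P2rx7-/- post-SE samples against wt control (10.7% of all assays) and against P2rx7-/- control (8.58%), and for none of the 8 in the other 3 comparisons (15.5%, 12.3% and 7.32%).

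No assay on the array, these included, passed an adjusted limma p of 0.05 in any of the 8 comparisons, interaction and averaged effects included (0% of all assays). The lowest adjusted p of any member was 0.775, and at an unadjusted limma p below 0.05 the count was also 0 of 8, against 4.81%, 3.77%, 3.14%, 0.837% and 2.72% of all assays in the pair comparisons, 2.3% for the interaction and 2.93% and 3.77% for the averaged effects of status epilepticus and genotype. By the methods' two-group test, 1 of the 8 passed an unadjusted p of 0.05, miR-143 (002249) in P2rx7-/- post-SE against P2rx7-/- control samples, where the P2rx7-/- post-SE samples had an SD of 0.010 and 2.51% of all assays passed. In the other 4 comparisons 1.67% to 3.97% of all assays and 0 of the 8 passed. After Benjamini-Hochberg adjustment over all assays its p was 0.956, and 0 of the 478 assays passed. The median log2 difference over the 8 assays was 0.20 in P2rx7-/- control and 0.01 in wt post-SE samples against wt control, beside -0.02 and -0.03 over all assays, and 0.13 for status epilepticus averaged over genotypes, beside -0.02.

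The spread between samples of a group differed among these miRNAs. The within-group SD of −ΔCt was 0.35 and 0.42 for the miR-143 assays (000466 and 002249), at percentiles 9.83 and 19.9 of all analyzed assays, 0.41 for mmu-miR-199b and 0.48 for miR-126. The miR-214 assays had 0.58 (mmu) and 0.65 (hsa), and the median of all assays was 0.72. miR-145 had 1.28 (percentile 74.1; 1.03 without wt control replicate 1) and miR-199a-3p had 1.62 (percentile 80.1). Of the 8, 6 were below the median spread of the array, and the 2 above it were those with the largest average FCs.

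**Figure D3:**
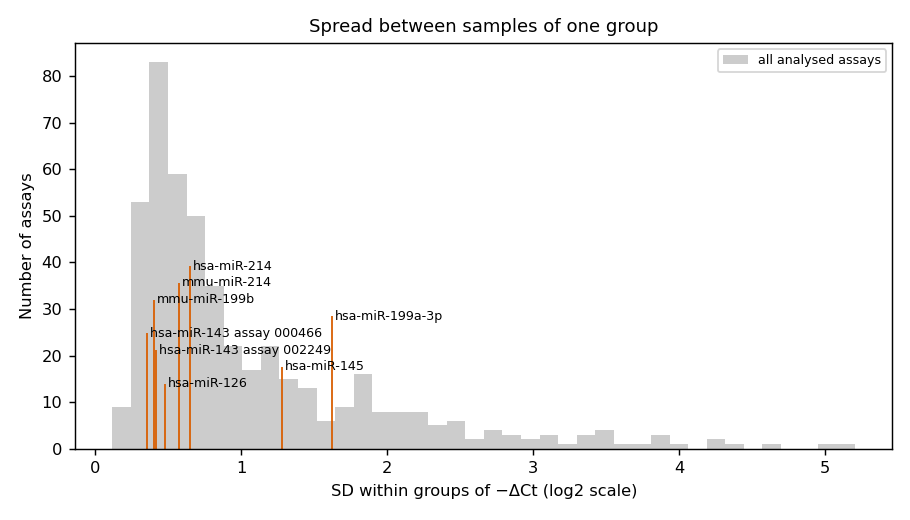
The grey histogram shows the SD of −ΔCt within groups (log2 scale, horizontal axis) for all 478 analyzed assays, and each orange line marks 1 of the 8 assays, with line heights set only to separate the names. Of the 8, hsa-miR-145 (1.28) and hsa-miR-199a-3p (1.62) lie above the median of 0.72.

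Assays that read the same miRNA, opposite arms or a shared transcript were compared across samples in 10 pairs. The miR-143 assays differed by 5.44 ± 0.475 cycles (mean ± SD, n = 11), with assay 002249 always earlier, and correlated weakly (Pearson r = 0.34, Spearman rho = 0.24, permutation p = 0.306 and 0.484, adjusted p = 0.613 and 0.874). Leaving out the 2 samples farthest from the median, r was 0.23. The miR-214 assays differed by 0.182 ± 0.910 cycles (n = 10), by up to 2.02, and did not correlate (r = -0.0043, rho = 0.10, permutation p = 0.990 and 0.787, adjusted p = 0.990 and 0.874, r = 0.04 without the 2 farthest samples). The arms of miR-126 had r = 0.67 and rho = 0.38 over the 9 samples with both (exact permutation p = 0.0345 and 0.313, adjusted p of r = 0.276), and r was -0.14 without the 2 farthest samples, so that the relation rests on those.

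For miRNAs with a shared transcript Pearson's r was below 0 in all 4 pairs over all samples. The hsa-miR-199a-3p assay also reads strands of the loci within Dnm2 and Dnm1, so its pairs with miR-214 are not of 1 transcript alone. miR-143 and miR-145 had r = -0.54 by assay 002249 and -0.36 by assay 000466 (n = 11, permutation p = 0.0780 and 0.294), and miR-199a-3p had r = -0.60 with hsa-miR-214 and -0.19 with mmu-miR-214 (n = 10, permutation p = 0.0827 and 0.609). Spearman's rho of these pairs was -0.11, -0.26, -0.58 and 0.03. Without the 2 farthest samples Pearson's r of these pairs was 0.13, -0.46, -0.24 and 0.34. None of the 10 pairs passed the adjustment. With the group means removed, r was -0.63, -0.23, -0.83 and -0.14 for these 4 pairs, 0.26 for the miR-143 assays, -0.11 for the miR-214 assays and 0.70 for the arms of miR-126, values that were not tested.

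**Figure D4:**
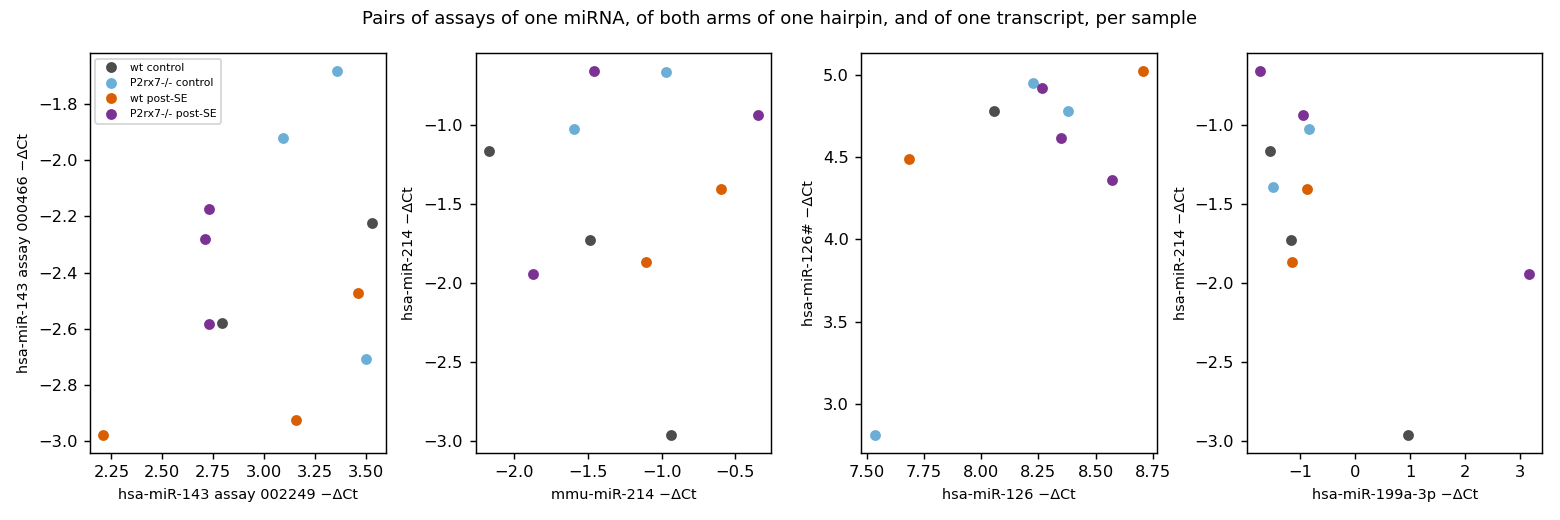
Each panel sets the −ΔCt (log2 scale) of 1 assay against that of another, with a point per sample coloured by group, for the miR-143 assays, the miR-214 assays, the arms of miR-126, and miR-199a-3p against hsa-miR-214. The miR-143 points scatter with r = 0.34 and the miR-214 points with r = -0.0043, and 1 P2rx7-/- control sample lies low for both arms of miR-126.

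The analyzed assays whose pattern over the samples was most like that of each miRNA were not other members. For miR-126 they were hsa-miR-133a, a miRNA of muscle (Spearman rho = 0.96), hsa-miR-331-5p (0.85) and hsa-miR-423-3P (0.84), over 10 samples. For miR-145 they were hsa-miR-874 (rho = 0.85, 11 samples), mmu-miR-129-3p (0.82, 12 samples) and the myeloid hsa-miR-142-3p (0.75, 12 samples). For miR-143 (002249) they were hsa-miR-361 and mmu-miR-337-3p (both 0.81) and hsa-miR-103 (0.77), with the other miR-143 assay at rank 127 of 449. For mmu-miR-214 they were hsa-miR-127 (0.85), hsa-miR-328 (0.83) and mmu-miR-30b# (0.81), with hsa-miR-214 at rank 191 of 441, and for miR-199a-3p they were rno-miR-352 (0.71), hsa-miR-107 (0.69) and mmu-miR-488 (0.68). Each is among the highest of 337 to 464 values over 10 to 12 shared samples, and is given as a description.

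Of 21 assays of other miRNAs linked to endothelium or vessels (miR-10, miR-31, miR-92, miR-130, miR-210, miR-218, miR-221, miR-222, miR-296 and miR-503, # strands included), 15 were analyzed and 0 passed an adjusted limma p of 0.05. Against wt control, the FC rule called 6 up and 1 down in knockout controls (25.5% and 15.3% of all assays). It called 3 up and 1 down in wt post-SE (26.8% and 12.8%), and 3 up and 4 down in knockout post-SE samples (24.5% and 14.2%). Between the genotypes post-SE it called 2 up and 2 down (20.3% and 7.74%). In P2rx7-/- post-SE against P2rx7-/- control samples 2 were called up-regulated and 6 down-regulated (22.6% and 9.21% of all assays), with a median log2 difference of -0.46 beside 0.05 over all assays. Averaged over genotypes, the log2 difference post-SE was -0.69 ± 0.31 (SE) for hsa-miR-130b, 0.42 ± 0.24 for the hypoxia-responsive hsa-miR-210 and -0.73 ± 0.49 for hsa-miR-296. The limma adjusted p was 0.856 for each of these. In the genotype comparison averaged over treatments, mmu-miR-503 had a log2 difference of 1.71 ± 1.27, hsa-miR-296-3p -0.91 ± 0.67 and mmu-miR-31# 0.42 ± 0.35, each with an adjusted p of 0.955.

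Markers of other cells in the tissue and its blood were read beside these values. The red blood cell miRNAs hsa-miR-486 and mmu-miR-451 had log2 differences post-SE of -0.94 ± 0.47 and -1.02 ± 0.54 (SE) averaged over genotypes, with limma adjusted p of 0.856 for both. Their mean −ΔCt ran from 1.21 to 3.61 in wt control, 1.47 to 2.69 in P2rx7-/- control, 0.91 to 1.07 in wt post-SE and 1.02 to 1.69 in P2rx7-/- post-SE samples. By this mean of 2 assays every wt post-SE sample was below every wt control sample, while the P2rx7-/- post-SE samples overlapped both control groups. Of all single assays, 12.3% did not overlap between wt post-SE and wt control samples. hsa-miR-486 and mmu-miR-451 were 2 of the 3 assays of that list. The part of blood left in the tissue in the values of the vascular miRNAs was not tested. For the 6 of 6 neuronal (miR-124, miR-128, miR-137 and miR-138), 6 of 6 oligodendrocyte (miR-219 and miR-338), 4 of 4 myeloid (miR-142 and miR-223) and 10 of 11 epithelial or choroid plexus assays (miR-141, miR-200, miR-204, miR-211 and miR-429) that were analyzed, 0 passed the adjusted limma p in any comparison. The mean level of the neuronal assays detected in all samples (3 of the 6) ran from 2.38 to 3.47 in wt control and from 3.14 to 4.10 in the other groups, and that of the myeloid assays (3 of the 4) overlapped between all groups, at 2.57 to 3.74.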

How the data were processed

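The authors measured 1 μg of hippocampal RNA per sample by TaqMan OpenArray with pre-amplification and deposited Ct values without normalization, listed only below 28, together with a table of fold changes (ratio per assay and sample, relative to wt control replicate 1). The software of the Ct calls is not given in the sources used here. All columns were assigned to samples by name, and 0 were left unassigned. Ct values were scaled by the global mean as described above, and FC is 2 to the power −ΔΔCt against the average of the reference group.

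The FC thresholds follow the methods of the study. The study's filter, a Ct in all 12 samples, leaves 1 of the 9 assays, so a Ct in at least 2 samples per group was required, and a missing Ct was left out of means and fits. With R 4.3.3, limma 3.58.1 (lmFit, eBayes) was fitted to −ΔCt of 478 assays in 12 samples with a coefficient per group, and p-values were adjusted by Benjamini-Hochberg over all 478. The fit was run on simulated data with known differences, and its pass limits applied to a run with a smaller spread than these data. That check does not measure the power of the fit here. Single assays had two-sided exact permutation tests, and correlations 100000 permutations. Other steps used scipy 1.17.1, pandas 2.3.3 and numpy 2.4.6 under Python 3.11.15, with matplotlib 3.10.9 for figures. Each sample pools animals, so errors measure the spread between pools. The miRNAs and lists were chosen with earlier results of these data known. Named were all member assays, up to 3 assays of each list with the lowest limma p, of which those not adding a value were left out of the text, and the 3 assays most alike by Spearman's rho. Neither labels nor methods tie same-numbered samples, so the replicate number entered as a block only in an alternative. Whether same-numbered samples shared a run or batch was not tested.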

Additional observations from a re-analysis of the deposited data

Results flagged for a closer look

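miR-126 was singled out because its genotype difference had opposite signs in the treatments. All 3 P2rx7-/- control samples were below the wt control mean (8.05 against 8.49), and all 3 P2rx7-/- post-SE samples were above the wt post-SE mean (8.40 against 8.20). The difference between these differences was 0.64 ± 0.67 (SE) on the log2 scale (95% interval -0.90 to 2.19), with a limma adjusted p of 0.916. Each wt mean rests on 2 samples (8.93 and 8.06 in controls, 7.68 and 8.71 post-SE). Without wt control replicate 1, at 8.93, the remaining wt control sample was at 8.06. P2rx7-/- control replicates at 8.38 and 8.23 were above it and the one at 7.53 below. The log2 difference in controls was then -0.01, the average FC 1.02 in place of 0.757, and the difference between the differences 0.21. Without wt post-SE replicate 1, at 7.68, all 3 P2rx7-/- post-SE samples were below the remaining wt post-SE sample, at 8.71.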

How the results depend on the processing

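No member passed an adjusted limma p of 0.05 under any of the 157 alternative fits, with a lowest adjusted p between 0.496 and 1.00. The counts called by the FC rule were 2, 2, 3, 1 and 1 for P2rx7-/- control, wt post-SE, then P2rx7-/- post-SE samples against wt control, and for P2rx7-/- post-SE samples against wt post-SE and P2rx7-/- control, in this order. With a Ct required in all 12 samples they were 1, 1, 1, 0 and 0, as 1 of the assays remained. With p below 0.05 in the methods' two-group test added, they were 0 in all 5. Leaving out each sample in turn gave 0 to 4, 2 to 3, 2 to 4, 1 to 4 and 0 to 1. Scaling to snoRNA135 and snoRNA202 gave 4 in the first comparison (2 up-regulated, and miR-126 and miR-199a-3p down-regulated, at 0.594 and 0.566), 3 in wt post-SE against wt control (miR-145 up-regulated, and miR-126 and miR-199a-3p down-regulated, at 0.584 and 0.466) and 3 up-regulated against wt post-SE, and scaling to the median Ct gave 3 against wt post-SE. The snoRNA scaling moved the median of all assays by -0.50 in wt post-SE against wt control and by -0.26 to 0.24 in the other pairs, the median scaling by up to 0.14 and the mean of all detected assays by up to -0.12. The average FC of miR-199a-3p reversed without P2rx7-/- post-SE replicate 1, to 0.615 against wt control and 0.920 against P2rx7-/- control. Leaving out each sample gave 0.615 to 8.48 and 0.920 to 10.7 for these. Of the 1184 recomputed log2 differences, 92 changed sign, none of them called, and 36 of the 64 differences changed sign under at least 1 alternative. Deviations from the group means correlated above 0.1 in 5 of 18 same-numbered pairs (median 0.052, range -0.21 to 0.30) and in 2 of 36 others (median -0.025), and 8 of 12 samples were closest to a sample of their own number. Neither labels nor methods tie same-numbered samples, and whether they shared a run or batch was not tested. The main fits left the replicate number out. With the replicate number as a block, 0 members passed in each comparison, with a lowest adjusted p of 0.754. Each assay was read once per sample, and with 2 or 3 pools per group the 95% intervals of miR-199a-3p reached from -3.61 to 2.45 on the log2 scale (P2rx7-/- control against wt control).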
